A study of Mus musculus with 50 samples.

Results

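The Hox genes were taken from the gene expression table as every gene with a symbol made of Hoxa, Hoxb, Hoxc or Hoxd and a number, which gave 38 of 37701 genes. On the mouse genome (GRCm38) 11 of them lie in the Hoxa cluster (chr6:52155590-52260880), 10 in Hoxb (chr11:96194316-96368256), 9 in Hoxc (chr15:102921103-103036852) and 8 in Hoxd (chr2:74668310-74765142). Hoxd4 was not analysed here.

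RNA was sequenced from 50 mammary gland (MG) tumors, each from a female p53R270H/+WAPCre mouse, which carries a heterozygous point mutation in the tumor suppressor Trp53 that is switched on by Cre recombinase under the whey acidic protein promoter, active in the mammary epithelium. The mice were 8 weeks old when treatment began. They received subcutaneous injections every other day of vehicle, insulin, glargine (a long-acting insulin analogue), X10 (an insulin analogue with a raised affinity for the IGF1 receptor) or IGF1 (insulin-like growth factor 1), until a tumor had reached its end size, and were killed 24 h after the last injection. Each group held 10 tumors, and the vehicle tumors are named Untreated in the sample titles. The study had chosen tumors of the epithelial to mesenchymal transition (EMT) type, with latencies nearest to the median of their group. The sources used here do not say from which gland along the trunk each tumor came.

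Hox proteins are homeodomain transcription factors that give cells their identity along the head to tail axis of the embryo. Within a cluster the genes are numbered in the order in which they lie, and genes with low numbers are used further toward the head than genes with high numbers. Genes with the same number in different clusters are paralogues, copies of 1 ancestral gene. Adult fibroblasts and other mesenchymal cells keep a Hox pattern that depends on where in the body they came from, and mouse mammary glands lie in pairs from the neck to the groin.

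Levels are given as RPKM, reads scaled to gene length in kilobases and to library size, as deposited. Library sizes recovered from the steps in these values were 26.6 to 51.9 M reads. A total of 17 Hox genes had a mean of at least 0.5 RPKM over the 50 tumors and were tested, of 16733 genes in the whole table that passed this filter: 6 of Hoxa, 5 of Hoxb, 4 of Hoxc and 2 of Hoxd. The other 21 are given by their levels. All of these tumors are mixtures of cells, so a lower level can mean fewer cells of a type or less RNA per cell, and these cannot be told apart. The summed RPKM of 12 epithelial markers (keratins, Epcam, claudins and others) was 14.6 in IGF1_158 and 23.7 in Untreated_197, against 63.8 in the next tumor and 10953.8 in the highest. Both tumors also had the highest summed Hox levels of the series, and results that rest on them are given with and without them. The summed RPKM of 10 fibroblast markers (Pdgfra, Col1a1, Dcn and others) ranged from 2906 to 32384.

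Expression centered on the middle of the clusters. Genes numbered 4 to 8 held 71.9% of the summed Hox RPKM of all tumors, and the 9 genes numbered 11 to 13 held 0.699% (74.0% and 0.669% with the exon lengths of the GENCODE M21 annotation). Each of those 9 had a mean under 0.1 RPKM, and the highest value of any of them in any tumor was 0.546 RPKM, of Hoxa13 in Untreated_197. A total of 23 Hox genes reached 1 RPKM in at least 1 tumor and 0 did so in all 50. A tumor had between 1 and 20 Hox genes at 1 RPKM or more, with a median of 8. The summed Hox RPKM was lowest at 7.95 in glargine_69, had a median of 28.7 and was highest at 124.6 in Untreated_197.

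**Figure D1:**
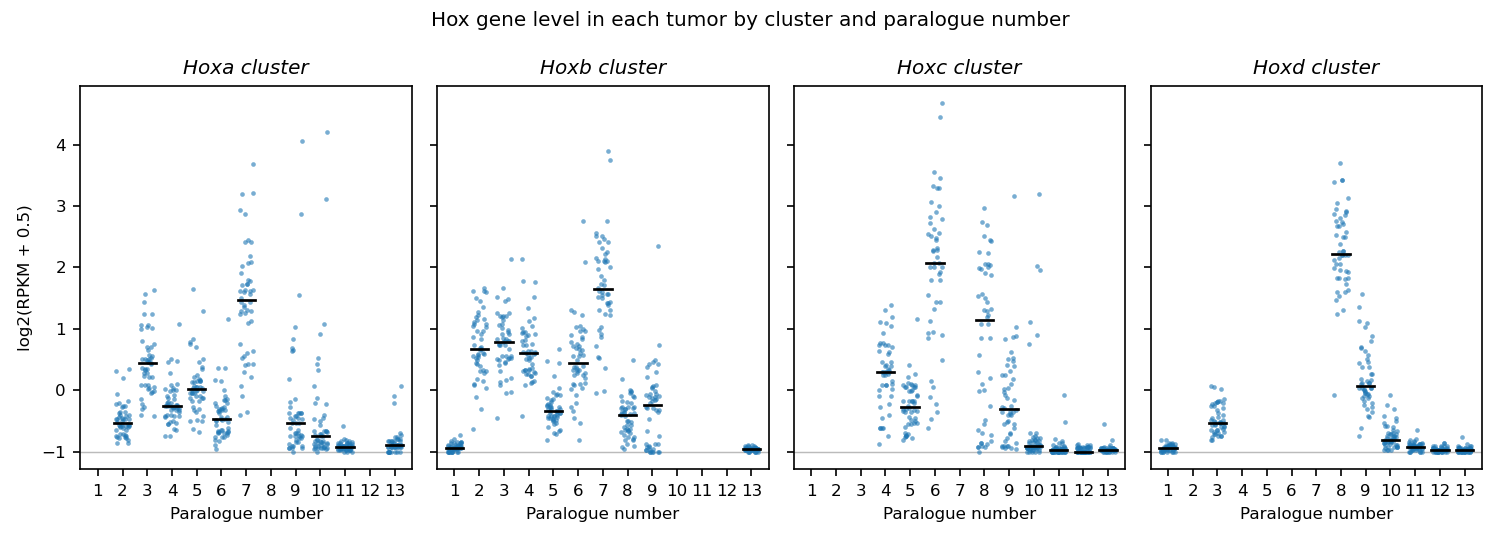
Levels of 37 Hox genes in the 50 tumors, by cluster and paralogue number, as log2(RPKM + 0.5), with a point per tumor and a bar at the median. The gray line at -1 marks 0 RPKM. Hoxd8, Hoxc6, Hoxb7 and Hoxa7 stand highest in their clusters, with medians of 4.18, 3.73, 2.63 and 2.27 RPKM, and the genes numbered 11 to 13 lie near the line.

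In deposited RPKM the highest gene differed by number between the clusters: 8 in Hoxd, 6 in Hoxc and 7 in Hoxb and Hoxa. Hoxd8 had a lowest value of 0.449, a median of 4.18 and a highest value of 12.5 RPKM, with a mean of 4.91 ± 2.45 (SD, n = 50). Hoxc6, which is expressed in the thoracic region of the embryo, ran from 0.156 through a median of 3.73 to 25.0 RPKM, with a mean of 4.81 ± 4.74. Hoxd8 and Hoxc6 therefore had like means and did not differ beyond their spread, but the SD of Hoxc6 was close to its mean. Hoxb7 ran from 0.47 through 2.63 to 14.4 RPKM, with a mean of 3.31 ± 2.55. Hoxa7 ran from 0.26 through 2.27 to 12.3 RPKM, with a mean of 2.82 ± 2.40. These 2 neighbors in the order overlapped over nearly their whole ranges. Hoxc8 followed with a mean of 2.02 ± 1.94 RPKM and was listed at 0 in glargine_53.

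The lower tested genes lay close together. Hoxb3, Hoxb2, Hoxb4 and Hoxb6 had means of 1.31, 1.27, 1.18 and 1.08 RPKM. Hoxa3, Hoxc4, Hoxa9, Hoxa10, Hoxd9, Hoxa5 and Hoxc9 had means of 0.953, 0.808, 0.767, 0.728, 0.722, 0.615 and 0.60 RPKM. Each of these neighbors in the order differed by less than its SD. Hoxd3, next in its cluster after Hoxd8 and Hoxd9, had a mean of 0.232 RPKM. In the GENCODE M21 annotation 62.3% of its exon bases are shared with another gene on the same strand, where default counting gives reads to neither. The length recovered from the deposited values was 2292 bases, against 4191 exon bases in M21, so the authors' annotation differed. Whether its level was lowered in this way was not tested.

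The order of levels depended on the gene lengths behind the RPKM. With the recovered reads taken per kilobase of all exons of GENCODE M21, the highest genes were Hoxb7 with 3.56, Hoxd8 with 3.15, Hoxb6 with 1.93, Hoxb4 with 1.91 and Hoxc6 with 1.79. The length recovered for Hoxa7 from the authors' values was 807 bases, against 2876 exon bases in M21. Its level with the M21 exons was 0.790, at rank 10 of the Hox genes, against rank 4 in deposited RPKM. Its place as the highest gene of Hoxa thus depended on the length. Ratios between tumors of the values of 1 gene are not touched by this. The filter on the mean, the RPKM cuts and the constant added to RPKM before the log2 are fixed, however. Which genes were tested, and their SDs, r and slopes, can therefore depend on the length. With the M21 exons Hoxa3, Hoxb3, Hoxa9, Hoxa10 and Hoxc9 had 0.243, 0.394, 0.117, 0.350 and 0.371, under the filter. Hoxa6, which was not tested, had 0.570, above it.

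Hox genes varied more between tumors than most genes. The median SD of log2(RPKM + 0.5) over the 50 tumors was 0.62 for the 17 tested Hox genes, against 0.42 for all 16733 tested genes, and all 17 lay above that median of all genes. Hoxa9, Hoxa10 and Hoxc9 were tested only through Untreated_197 and IGF1_158, so that part of their spread is set by the filter. Without these 2 tumors 14 Hox genes had a mean of at least 0.5 RPKM, with a median SD of 0.52 against 0.42 for all 16726 such genes, and 14 of 14 lay above the median of all genes. The median mean level was 1.08 RPKM for the Hox genes and 10.2 RPKM for all genes tested, so the Hox values rested on fewer reads. The largest SDs were 1.27 for Hoxc8, 1.23 for Hoxc6, 0.98 for Hoxa10, 0.96 for Hoxa9, 0.92 for Hoxa7 and 0.79 for Hoxb7. Without Untreated_197 and IGF1_158 they were 1.27, 1.12, 0.50, 0.58, 0.87 and 0.68 in the same order, so the spread of Hoxa10 and Hoxa9 rested mostly on these 2 tumors.

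**Figure D2:**
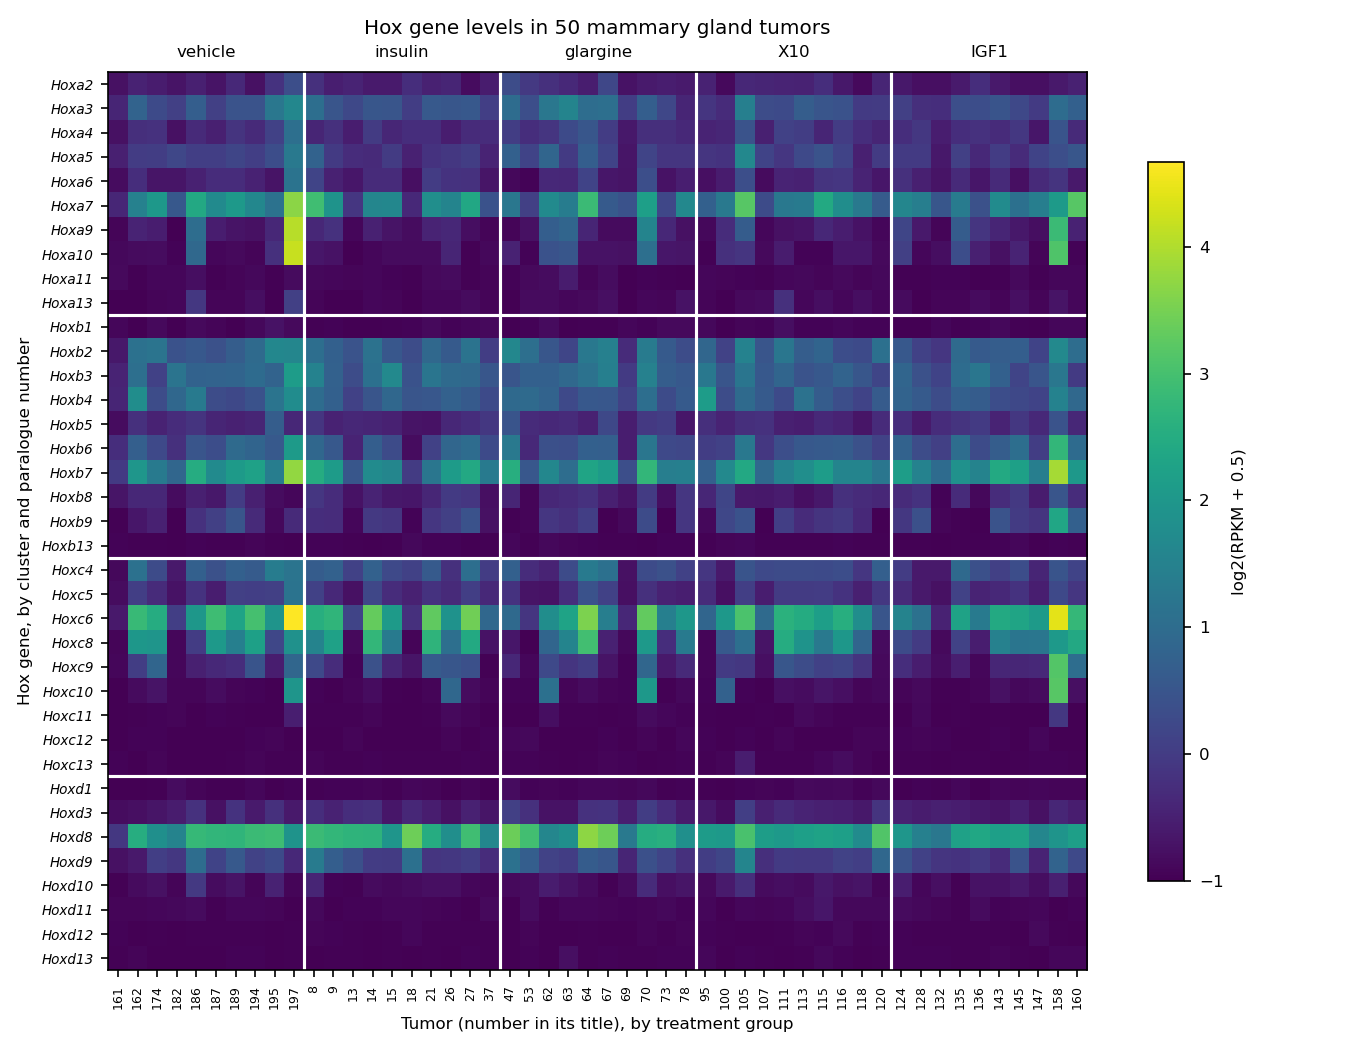
Levels of 37 Hox genes, ordered by cluster and number, in each of the 50 tumors, ordered by treatment group and marked by the number in its title, as log2(RPKM + 0.5) in color. Untreated_197 and IGF1_158 show high values in Hoxa9, Hoxa10 and Hoxc10 that most other tumors lack, and tumors with low Hoxc6 and Hoxc8 occur in all 5 groups.

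Promoters are shown for Hoxa9 and Hoxa10, a posterior pair with its highest levels in Untreated_197 and IGF1_158, and for the pair with the smallest p values against the fibroblast marker score, Hoxd8 and Hoxc4. Each runs from 250 bases before to 50 bases after a start site of RefSeq (GRCm38.p6) and is written 5′ to 3′ on the strand of the gene. Capitals mark a match, on either strand, to the CCAAT box, to the TATA box letters TATAAA or to TGATNNAT, a core of the sites that Hox proteins bind together with Pbx partners.
Hoxa9, chr6:52227321-52227620, minus strand: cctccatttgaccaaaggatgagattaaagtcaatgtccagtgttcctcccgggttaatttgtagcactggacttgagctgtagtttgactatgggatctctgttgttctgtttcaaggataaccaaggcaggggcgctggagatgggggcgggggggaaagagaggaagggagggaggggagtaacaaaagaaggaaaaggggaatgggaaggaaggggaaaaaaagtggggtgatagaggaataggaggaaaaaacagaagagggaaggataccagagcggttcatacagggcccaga
Hoxa10, chr6:52240805-52241104, minus strand: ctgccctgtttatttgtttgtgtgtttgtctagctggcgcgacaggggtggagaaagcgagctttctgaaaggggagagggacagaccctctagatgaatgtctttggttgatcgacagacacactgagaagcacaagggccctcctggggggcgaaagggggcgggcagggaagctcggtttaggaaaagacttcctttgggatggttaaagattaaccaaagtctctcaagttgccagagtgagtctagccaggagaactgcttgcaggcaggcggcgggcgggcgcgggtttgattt
Hoxa10, chr6:52234890-52235189, minus strand: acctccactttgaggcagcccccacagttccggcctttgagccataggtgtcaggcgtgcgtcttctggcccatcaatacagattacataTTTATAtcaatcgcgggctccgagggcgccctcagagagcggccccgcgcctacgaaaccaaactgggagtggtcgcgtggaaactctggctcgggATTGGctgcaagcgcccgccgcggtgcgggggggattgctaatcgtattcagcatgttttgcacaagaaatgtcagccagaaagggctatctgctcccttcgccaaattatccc
Hoxd8, chr2:74704365-74704664, plus strand: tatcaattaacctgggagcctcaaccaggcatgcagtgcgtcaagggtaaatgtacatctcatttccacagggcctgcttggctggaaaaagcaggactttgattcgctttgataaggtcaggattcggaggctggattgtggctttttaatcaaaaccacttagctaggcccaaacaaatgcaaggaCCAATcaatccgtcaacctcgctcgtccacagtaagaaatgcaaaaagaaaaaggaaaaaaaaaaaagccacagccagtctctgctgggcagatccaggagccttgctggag
Hoxc4, chr15:103034145-103034444, plus strand: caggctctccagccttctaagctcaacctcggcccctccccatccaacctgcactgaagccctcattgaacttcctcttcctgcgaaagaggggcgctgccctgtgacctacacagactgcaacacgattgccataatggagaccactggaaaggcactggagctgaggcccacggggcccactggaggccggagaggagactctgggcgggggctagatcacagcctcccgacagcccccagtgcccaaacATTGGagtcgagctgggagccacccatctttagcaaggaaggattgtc
The Hoxd8 promoter held CCAAT, which starts at base -62 from the start site. The second Hoxa10 start had TATAAA on the other strand at -160 and CCAAT on the other strand at -64, and Hoxc4 had CCAAT on the other strand at base 3 after the start (matches on the other strand read TTTATA and ATTGG here). Hoxa9 and the first Hoxa10 start held none of these letters in this window. Of 23 promoters of the 21 Hox genes found in RefSeq, 14 held CCAAT, 3 held TATAAA and 4 held TGATNNAT. Of all 32851 promoters, 37.4% held CCAAT, 13.6% held TATAAA and 8.85% held TGATNNAT.

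Within the Hoxc cluster, which holds the 2 most variable Hox genes, tumors differed in which genes were expressed. Hoxc6 reached 1 RPKM in 42 tumors, Hoxc8 in 29, Hoxc9 in 6 and Hoxc10 in 6. At 0.5 RPKM these counts were 45, 34, 18 and 6, and at 2 RPKM they were 36, 20, 1 and 3. With the values rescaled to the M21 exon lengths, 41, 32, 11 and 6 tumors reached 0.5, 33, 29, 1 and 6 reached 1, and 15, 16, 1 and 3 reached 2. The order of Hoxc9 and Hoxc10, and that of Hoxc6 and Hoxc8, thus depended on the cut and on the lengths. All 29 tumors with Hoxc8 at 1 RPKM or more also had Hoxc6 at that level, and all 6 with Hoxc9 also had Hoxc8. The first of these had to hold in deposited RPKM, as Hoxc6 was above Hoxc8 there in all 50 tumors. With the M21 lengths it held for 32 of 32 tumors at a cut of 0.5 and for 29 of 29 at 1, but for 14 of 16 at 2. Hoxc9 went with Hoxc8 there in 11 of 11 tumors at 0.5, but only 1 tumor had Hoxc9 at 1 or at 2. In deposited RPKM Hoxc6 was above Hoxc8 in 50 of 50 tumors, Hoxc8 above Hoxc9 in 43 and Hoxc9 above Hoxc10 in 42, but with the M21 lengths in 29, 46 and 37, so the lengths decide which of Hoxc6 and Hoxc8 is the higher in many tumors. The 29 tumors with Hoxc8 were spread over the groups, with 6 vehicle, 7 insulin, 5 glargine, 6 X10 and 5 IGF1 tumors.

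Hoxc10, a gene of the lumbar region and hindlimb in the embryo, was the clearest example of expression in few tumors. It was at 8.71 RPKM in IGF1_158, 3.56 in glargine_70, 3.40 in Untreated_197, 1.65 in glargine_62, 1.37 in insulin_26 and 1.18 in X10_100. The other 44 tumors had 0.12 RPKM or less, from 0 to 10 reads, whereas the 6 high tumors had 72 to 701 reads. Of the 6, 5 had Hoxc8 at 1 RPKM or more and 3 had Hoxc9 at that level. Every treatment group held at least 1 of them.

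**Figure D3:**
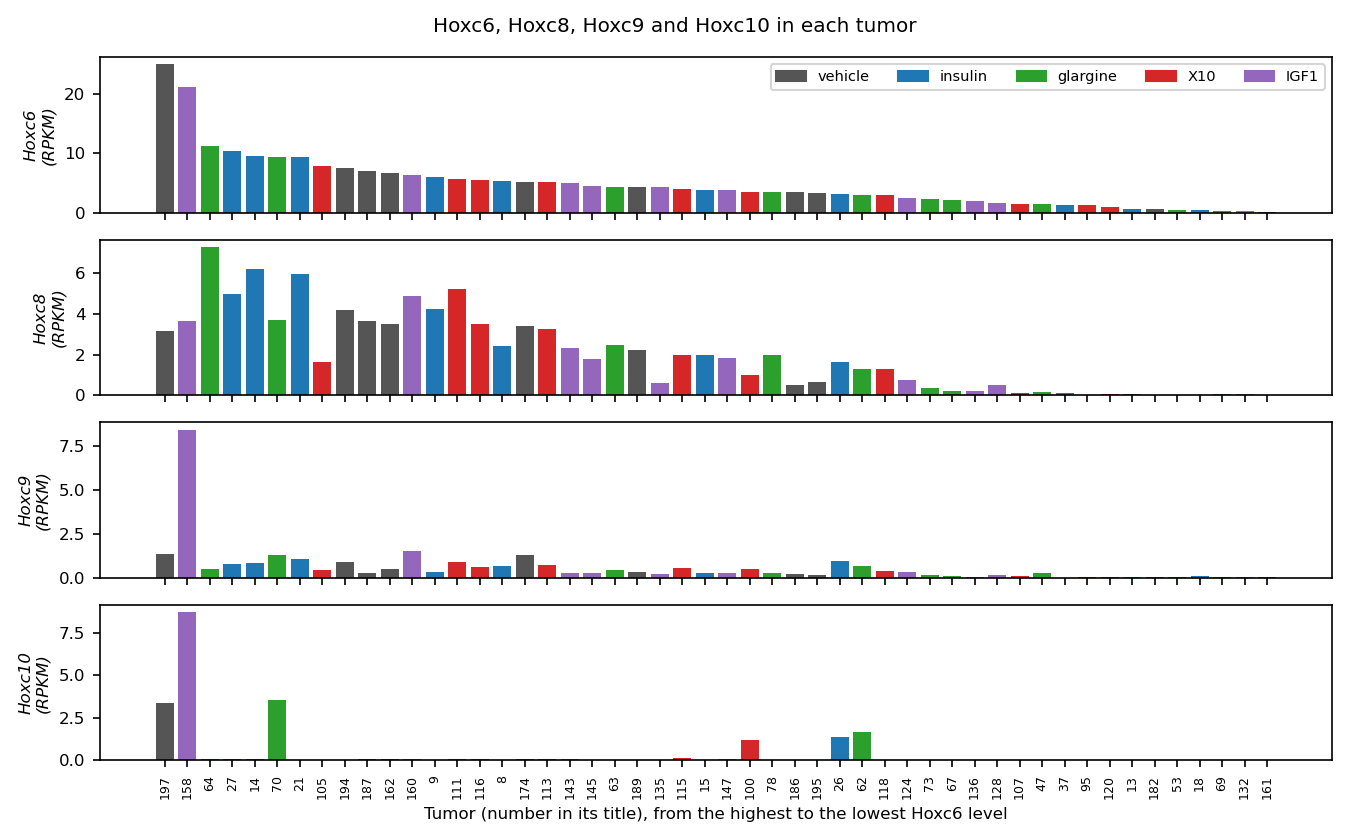
Hoxc6, Hoxc8, Hoxc9 and Hoxc10 in each tumor, as bars in RPKM on linear axes, with tumors ordered from the highest to the lowest Hoxc6 and groups marked by color. Hoxc10 lies at or above 1 RPKM in 6 tumors and at 0.12 or less in the other 44, and Hoxc8 is low in most tumors with low Hoxc6.

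Hoxa9 and Hoxa10, posterior genes of the Hoxa cluster that are also known for their role in blood stem cells, showed a like pattern. Hoxa9 reached 1 RPKM in 8 tumors and Hoxa10 in 4 of these 8. Both were highest in Untreated_197, with 16.2 and 17.9 RPKM, followed by IGF1_158 with 6.80 and 8.13. The medians over the 50 tumors were 0.188 RPKM for Hoxa9 and 0.095 for Hoxa10. Without these 2 tumors the means were 0.319 and 0.217 RPKM, under the 0.5 RPKM that a gene needed to be tested, and that of Hoxc9 was 0.421. Of the 8 tumors with Hoxa9, 4 were among the 6 with Hoxc10.

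Levels of neighboring Hox genes moved together across tumors. Over the 50 tumors Hoxb6 and Hoxb7 had r = 0.93 (Spearman's rho = 0.90) and Hoxc6 and Hoxc8 r = 0.89 (rho = 0.94), on log2(RPKM + 0.5). The permutation p was 1e-05 for each, the smallest that the resamples can give, and the p adjusted over all pairs of the 17 tested genes was 4.5e-05 for each r. Without the 2 tumors farthest from the median of the first gene of the pair, r was 0.91 for Hoxb6 and Hoxb7 and 0.91 for Hoxc6 and Hoxc8, and with group means removed it was 0.93 and 0.89. Without Untreated_197 and IGF1_158, r was 0.91 for Hoxb6 and Hoxb7 and 0.92 for Hoxc6 and Hoxc8. Hoxa9 and Hoxa10 had r = 0.97 (rho = 0.68), and 0.91 without these 2 tumors. As both were tested only through these tumors, this r is given as a description. Of the exon bases of Hoxa9, 1.52% are shared with another gene on the same strand, and of Hoxa10, Hoxb6, Hoxb7, Hoxc6 and Hoxc8 0%.

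The median r was 0.70 over the 8 pairs of tested genes numbered next to each other in a cluster, 0.49 over the 24 other pairs of the same cluster, 0.46 over the 8 pairs of paralogues and 0.41 over the 96 remaining pairs. Without Untreated_197 and IGF1_158 these medians were 0.77, 0.39, 0.32 and 0.35, so the order of the last 2 classes turned. All but 7 of these pairs had an r above 0. All pairs share the same libraries, and their medians are given as a description. Both sets of medians keep Hoxa9, Hoxa10 and Hoxc9, which were tested only through Untreated_197 and IGF1_158. They are in the neighbor pairs Hoxa9 and Hoxa10, Hoxa7 and Hoxa9, and Hoxc8 and Hoxc9. Of the other neighbor pairs, Hoxd8 and Hoxd9 had r = 0.68, Hoxb3 and Hoxb4 0.58 and Hoxb2 and Hoxb3 0.55, beside the 2 pairs given above. Without these tumors they had 0.70, 0.49 and 0.49.

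Among genes outside the family, the levels of Hoxd8 were most like those of Cpz (a carboxypeptidase that binds Wnt proteins), with r = 0.84 over the 50 tumors, Mfap2 (a protein of elastic microfibrils) with r = 0.84 and Adcy5 (an adenylyl cyclase) with r = 0.82. Cpz and Mfap2 were again the most alike without Untreated_197 and IGF1_158. For Hoxc6 the most alike were Clip3 with r = 0.67, Tvp23a with 0.66 and Tshz3 with 0.65. For Hoxb7 they were Tvp23a with 0.69, Col6a5 (a collagen VI chain) with 0.64 and Gpx7 with 0.64. For Hoxa7 they were Ccr9 (a chemokine receptor of lymphocytes) with 0.59, Siglech with 0.56 and Cers4 with 0.55. Without the 2 tumors 0 of these genes remained for Hoxc6 and Hoxb7 among the 3 most alike, and 1, Cers4, for Hoxa7.

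The treatment groups were compared to ask whether Hox levels differed between tumors that arose under different insulin-like molecules. Of the 17 tested Hox genes, 0 differed from vehicle in tumors of mice given insulin (0% of all genes tested did), glargine (0%), X10 (0.0657%) or IGF1 (0.00598%), at an adjusted p under 0.05 by limma. Likewise 0 of 17 differed between the X10 and IGF1 tumors together and the vehicle, insulin and glargine tumors (0.155% of all genes) or among the 5 groups at all (0.102%). At an unadjusted p under 0.05 there was 1 Hox gene in each of the comparisons with vehicle, where 11.1%, 6.23%, 11% and 8.84% of all genes lay, and 0 in the pooled comparison, where 10.5% lay. Without Untreated_161 there were 3 in the pooled comparison, where 10.8% of all genes lay, and 0 in that of X10 with vehicle, where 9.85% lay. The X10 count was also 0 without Untreated_186, where 11.3% lay. The IGF1 count was 2 without IGF1_135 or without Untreated_182, where 8.04 to 8.57% lay. Among the 5 groups there was also 1, where 13.1% of all genes lay, and 0 without Untreated_161, where 12.1% lay. The limma-voom test on recovered reads also called 0. The 4 comparisons share the same 10 vehicle tumors.

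**Figure D4:**
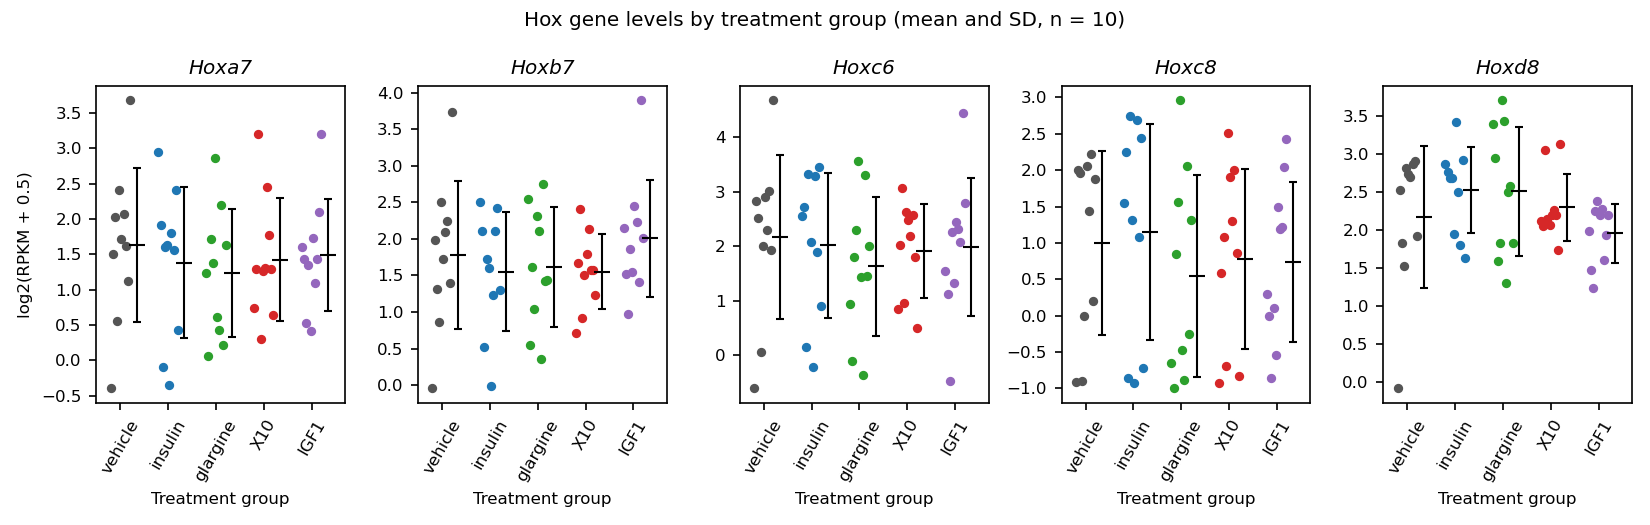
Levels of Hoxa7, Hoxb7, Hoxc6, Hoxc8 and Hoxd8 in the 5 treatment groups, as log2(RPKM + 0.5), with a point per tumor and a bar with whiskers at the group mean and SD (n = 10 each). The groups overlap for every gene shown, and the medians of Hoxd8 lie between 3.77 RPKM in IGF1 and 5.90 RPKM in insulin tumors.

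None of the highest Hox genes passed the test between groups. The medians of Hoxd8 were 5.63 RPKM in vehicle (0.449 to 7.00), 5.90 in insulin (2.59 to 10.2), 5.31 in glargine (1.97 to 12.5), 4.01 in X10 (2.83 to 8.26) and 3.77 in IGF1 tumors (1.87 to 4.72). Its log2 difference from vehicle was 0.35 for insulin (95% interval -0.24 to 0.93) and -0.22 for IGF1 (-0.81 to 0.37). Without Untreated_161, the vehicle tumor at 0.449 RPKM, these were 0.10 and -0.47. Hoxc6 had medians of 4.80, 4.53, 2.59, 3.78 and 4.01 RPKM in the same order of groups. Its intervals were wide: the largest of its log2 differences, -0.53 for glargine, ran from -1.63 to 0.57. Without Untreated_161 it was -0.84. Hoxb7 had medians of 3.12, 2.67, 2.39, 2.47 and 3.34 RPKM, and Hoxa7 of 2.68, 2.57, 1.98, 1.95 and 2.20 RPKM. Differences of less than these intervals were not detectable with 10 tumors a group.

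Over the 17 tested Hox genes the median log2 difference from vehicle was -0.15 in insulin, -0.16 in glargine, -0.21 in X10 and -0.16 in IGF1 tumors, against 0.03, 0.02, -0.03 and 0.02 for all genes tested. Without Untreated_197 and IGF1_158 the medians of the Hox genes were -0.01, 0.05, 0.01 and -0.12, and without Untreated_161 they were -0.33, -0.25, -0.32 and -0.32. With library size as a covariate they were 0.00, -0.06, 0.08 and -0.10, and with the fibroblast score as a covariate -0.36, -0.30, -0.25 and -0.09. In the pooled comparison of X10 and IGF1 with the other groups the median was -0.02 for the Hox genes and for all genes. There Hoxa3, an anterior gene with a role in the throat region of the embryo, had the smallest p, with a log2 difference of -0.26 (limma p = 0.0741, adjusted p = 0.535). Without Untreated_161 the smallest p was that of Hoxd8, with -0.36 (limma p = 0.0331, adjusted p = 0.405), followed by Hoxc4 with -0.32 (adjusted p = 0.425) and Hoxa3 with -0.30 (adjusted p = 0.427).

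Levels of several Hox genes went with those of fibroblast markers. The fibroblast marker score was the mean standardized level of the 10 markers, scaled to an SD of 1, and slopes are log2 differences per SD of score with the treatment group in the model. The tumors were chosen as EMT tumors, and the markers include Pdgfrb, which the study placed with its mesenchymal genes. Fibroblasts and mesenchymal tumor cells therefore cannot be told apart by this score. Of the 17 tested Hox genes, 7 passed the test, all 7 with higher levels at higher scores, where 2.21% of all genes tested did so (2.88% in both directions). These were Hoxd8 with 0.53 (SE 0.065, adjusted p by limma 7.46e-08), Hoxc4 with 0.41 (SE 0.060, adjusted p 4.27e-06), Hoxc6 with 0.77 (SE 0.15, adjusted p 0.00084), Hoxb2 with 0.32 (adjusted p 0.0021), Hoxb7 with 0.43 (adjusted p 0.00852), Hoxc8 with 0.65 (adjusted p 0.019) and Hoxa3 with 0.25 (adjusted p 0.0282). Of these calls, that of Hoxa3 was lost with quantile normalization (adjusted p by limma 0.115) and with all genes of a nonzero value tested (0.0521), and that of Hoxb7 without treatment group in the model (0.0541). The 7 include the highest gene of Hoxb, Hoxc and Hoxd. Hoxa7 had a slope of 0.43 and an adjusted p of 0.0578. At an unadjusted p under 0.05 there were 12 Hox genes, where 14.8% of all genes lay, and 8, where 10.5% lay, without the 2 tumors farthest from the median score. The median slope was 0.25 over the 17 Hox genes and -0.01 over all genes tested. The Hox median was 0.44 with a pseudocount of 0.1 and 0.13 with all genes of a nonzero value tested.

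How many genes passed on the fibroblast score depended on few tumors, for the Hox genes and for all genes, whereas the slopes moved less. The lowest scores were -3.44 in Untreated_161 and -2.60 in Untreated_182. Without Untreated_161, 3 Hox genes passed: Hoxd8 with 0.47 (adjusted p by limma 3.61e-05), Hoxc4 with 0.41 (adjusted p 0.000203) and Hoxc6 with 0.73 (adjusted p 0.0159), where 1.82% of all genes tested did. Hoxc8, Hoxb7, Hoxb2 and Hoxa3 had slopes of 0.67, 0.39, 0.28 and 0.23 there, with adjusted p values from 0.0566 to 0.152. Without both tumors 2 passed, Hoxd8 and Hoxc4, where 1.12% of all genes did, and Hoxc6, Hoxc8, Hoxb7, Hoxb2 and Hoxa3 had slopes of 0.68, 0.64, 0.38, 0.31 and 0.24. Without Untreated_197 and IGF1_158, 7 passed, where 3.02% of all genes did. Leaving out 1 other tumor also lost single calls. That of Hoxc8 was lost without Untreated_182 (adjusted p by limma 0.0513) or without glargine_64 (0.05002), and that of Hoxa3 without Untreated_197 (0.0579).

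**Figure D5:**
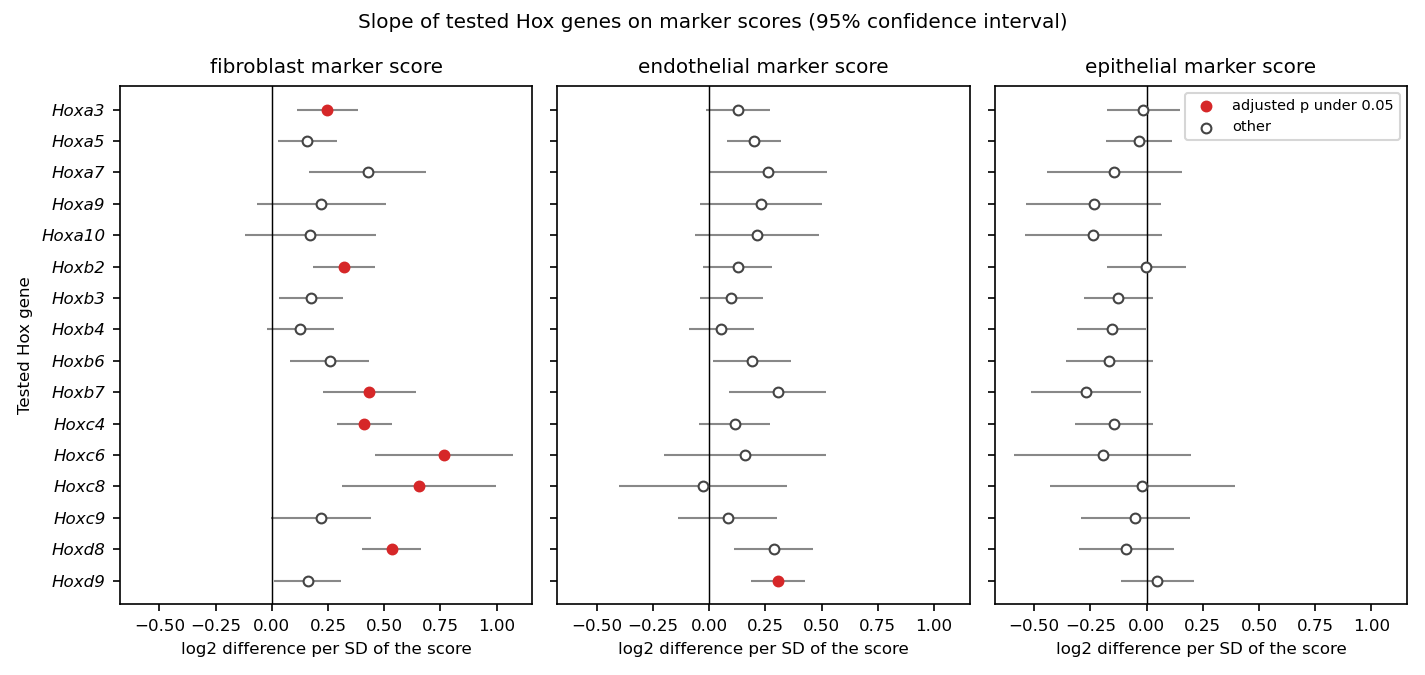
Slopes of 16 of the 17 tested Hox genes on the fibroblast, endothelial and epithelial marker scores, as log2 differences per SD of score with 95% intervals, treatment group in the model, filled red where the adjusted p was under 0.05. On the fibroblast score 7 are filled, all above 0, on the endothelial score Hoxd9 alone, and on the epithelial score 0.

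The other marker scores went with fewer Hox genes. On the epithelial score 0 of 17 passed by limma, where 13.4% of all genes did, and 2 had an unadjusted p under 0.05, where 28.2% of all genes had. That count was 7, where 17.7% of all genes lay, without the 2 tumors farthest from the median score, with all 17 slopes below 0 and a median of -0.18, and it was 0, where 27.1% lay, without Untreated_197 and IGF1_158, with a median of -0.02. With 1 tumor left out it ran from 0 (without Untreated_197, where 26% lay) to 6 (without X10_105, where 27.8% lay). On the endothelial score 1 passed, where 1.3% of all genes did: Hoxd9 with a slope of 0.30 (SE 0.060, adjusted p 0.00168). At an unadjusted p under 0.05 there were 5, where 12.8% of all genes lay. Hoxd9 ran from 0.096 through a median of 0.554 to 2.48 RPKM, lowest in Untreated_161 and highest in X10_105. On the leukocyte score 1 passed, where 13.8% of all genes did: Hoxb4, a gene of blood progenitors, with 0.20 (adjusted p 0.0489), just inside the threshold, a call that most of the other settings did not make, and 7 had an unadjusted p under 0.05, where 25.5% of all genes had. That count was 2, where 27.2% lay, with quantile normalization, and 3, where 24% lay, without Untreated_197 and IGF1_158. Without Untreated_161 it was also 3, where 23.8% lay. On the skeletal muscle score 0 passed, where 1.26% of all genes did, with 2 at an unadjusted p under 0.05, where 10.2% of all genes lay, and 0, where 8.84% lay, without the 2 farthest tumors. On the adipocyte score 0 passed, where 1.24% of all genes did, and the smallest adjusted p was 0.0778. There 9 of the 17 had an unadjusted p under 0.05, where 11.6% of all genes had. This count depended on the setting: it was 3 with quantile normalization (12.8% of all genes), 3 without the 2 farthest tumors (10.2%), 12 without Untreated_197 and IGF1_158 (12.8%) and 5 to 12 with 1 tumor left out, lowest without glargine_70 (11.4%) and highest without Untreated_197 (13.3%). That a gene passed on 1 score and not on another was not tested as a difference. The scores are measured in the same tumors and their joint part in the Hox levels was not tested.

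Genes that work with the Hox genes were read from lists. Of the TALE cofactors, the homeodomain partners that bind DNA with Hox proteins, 9 were tested, with Pbx2 at a mean of 47.7 and Pbx3 at 18.5 RPKM. Of the Polycomb genes, which keep Hox clusters silent, 17 were tested, led by Phc2 with 235 and Cbx6 with 134 RPKM. Of the trithorax and MLL genes, which keep them active, 11 were tested, led by Psip1 with 83.0 and Kmt2b with 64.1 RPKM. Upstream regulators gave 8, led by Rarg, a retinoic acid receptor, with 219 RPKM, whereas Cdx1, Cdx2 and Cdx4, which switch on middle Hox genes in the embryo, had means of 0.0224, 0.0797 and 0.0301 RPKM. Their highest values in any tumor were 0.16, 2.915 and 0.102 RPKM, and the median of Cdx2 was 0.018. By limma 0 genes of these lists, of 7 in or beside the clusters and of 8 textbook targets passed in any of the 6 comparisons of treatments. At an unadjusted p under 0.05 the Polycomb list had 6 in insulin, 4 in glargine, 3 in X10 and 2 in IGF1 against vehicle, of 17 genes, where 11.1%, 6.23%, 11% and 8.84% of all genes lay, and the TALE list had 0 in each. In the same order the trithorax and MLL list had 2, 1, 1 and 0 of 11. The upstream regulators and the textbook targets each had 0, 0, 0 and 1 of 8.

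On the fibroblast score 2 of the 8 textbook targets passed, where 2.88% of all genes did, both higher: Fgf10, a growth factor of the mesenchyme, with a slope of 0.64 (SE 0.13, adjusted p by limma 0.00123) and Ncam1, a cell adhesion molecule, with 0.38 (SE 0.10, adjusted p 0.0211). None of the tested TALE, Polycomb, trithorax and upstream genes passed on this score. At an unadjusted p under 0.05 there were 3 of 9, 3 of 17, 1 of 11 and 2 of 8, where 14.8% of all genes lay. On the epithelial score, where 13.4% of all genes passed, 3 of 8 upstream regulators did so, all higher: Rxra with 0.21, Rara with 0.23 and Rxrb with 0.16. Of the textbook targets 3 of 8 passed, with Bmp7, a bone morphogenetic protein, higher (0.93) and Tgfbr2, a receptor of TGF beta, and Ncam1 lower (-0.38 and -0.40). Of 17 Polycomb genes 3 passed, with Cbx7 (0.43) and Ring1 (0.18) higher and Jarid2 (-0.17) lower. Of 9 TALE genes 2 passed, with Pbx2 higher (0.13) and Pbx3 lower (-0.19). In or beside the clusters 1 of 7 passed, Lnpk, which was lower (-0.17), and 0 of 11 trithorax genes did. On the leukocyte score, where 13.8% of all genes passed, 2 of the 7 genes in or beside the clusters did so, Skap1 (0.59) and Skap2 (0.21), adaptor genes of blood cells that lie beside Hoxb and Hoxa, both higher. The other lists had 2 of 17 Polycomb genes, with Ezh1 (0.16) higher and Pcgf2 (-0.21) lower, 2 of 8 upstream regulators, Rarg (-0.20) and Rara (-0.18), both lower, 1 of 9 TALE genes, Pknox1 (0.09), 1 of 8 textbook targets, Tgfbr2 (0.32), both higher, and 0 of 11 trithorax genes.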

How the data were processed

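Total RNA had been extracted from 50 tumors, selected for polyadenylated RNA and sequenced on an Ion Proton. The authors aligned reads to GRCm38 with TopHat2 2.0.10, then Bowtie2 for unaligned reads, and counted them per gene with HTSeq 0.6.1 on default options. They deposited RPKM values (reads scaled by library size and by gene length), and the study names DEXSeq as the tool behind its RPKM table. Steps between low values gave back reads, lengths and library sizes (98.2 to 100% of low values whole per tumor). Hox members were matched by symbol. limma 3.58.1 (R 4.3.3) was fitted to log2(RPKM + 0.5) of the 16733 genes with a mean of at least 0.5 RPKM, with an intensity trend, two-sided p and Benjamini-Hochberg adjustment over all of them. Fold changes on this scale understate changes of low genes. The genes named were the 3 highest of each cluster, the 6 most variable, those passing a test and the smallest p of each comparison. Permutation tests used 100000 resamples. The members and gene lists were chosen with earlier results of these data known. GEO's labels give no batch. Each tumor came from a separate mouse. Alternatives covered pseudocounts, filters, normalization, covariates, limma-voom and leaving out tumors. Results for some items are not reported here.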

Additional observations from a re-analysis of the deposited data

Results flagged for a closer look

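In 14 of 85 sets of 10 tumors (1 of the 17 tested Hox genes in a treatment group), the highest or lowest tumor stood apart from the other 9 by Dixon's test. Chance flags about 1 in 20 sets, but Hoxa9, Hoxa10 and Hoxc9, with 6 of the 14, were tested only through their high values in Untreated_197 and IGF1_158, so the total is given as a description. Hoxc10, with 4 more, was added after its values were seen. Over these 18, IGF1_158 stood apart in 6. It had 6.804 RPKM of Hoxa9, 8.131 of Hoxa10, 6.293 of Hoxb6, 14.401 of Hoxb7, 8.424 of Hoxc9 and 8.711 of Hoxc10. Untreated_197 stood apart in 5, with 1.945 RPKM of Hoxa5, 16.216 of Hoxa9, 17.896 of Hoxa10, 3.755 of Hoxb6 and 3.4 of Hoxc10. These are the 2 tumors with the lowest epithelial marker sums. X10_105 was high in Hoxa5 with 2.653 RPKM and in Hoxa9 with 1.058. Of the rest, insulin_8 had 1.22 RPKM of Hoxa5, X10_95 had 3.876 of Hoxb4, insulin_26 had 1.372 of Hoxc10 and X10_100 had 1.184 of Hoxc10. The only low value was Hoxd8 in Untreated_161 with 0.449 RPKM. The causes were not tested.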

How the results depend on the processing

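The count of 0 Hox genes between treatment groups was the same in each of the 6 comparisons under every alternative run, and with each of the 50 tumors left out in turn (0 to 0). On the fibroblast score 2 Hox genes passed without the 2 tumors farthest from the median score, where 1.12% of all genes did, and 3 to 8 with 1 tumor left out. The count of 3 came without Untreated_161, where 305 genes in all passed, 1.82%. Hoxc8, Hoxb7, Hoxb2 and Hoxa3 were not called there, with slopes of 0.67, 0.39, 0.28 and 0.23 (adjusted p by limma 0.0721, 0.102, 0.0566 and 0.152). Leaving out 1 tumor gave 0 to 1 on the epithelial score (1 without X10_105, where 12% of all genes passed), 0 to 0 on the skeletal muscle score (1.09 to 1.62% of all genes), 0 to 1 on the adipocyte score (1 without Untreated_197, insulin_15 or glargine_78, where 1.22 to 1.55% passed), 0 to 3 on the leukocyte score (0 for 35 of the 50 tumors, where 12 to 14.8% passed, 2 without glargine_47, IGF1_128, IGF1_132 (spelled IFG1 in its title) or IGF1_160, 3 without glargine_69, where 13% passed) and 1 to 2 on the endothelial score (2 without X10_118, where 1.39% passed). On the adipocyte score 1 passed without treatment group in the model. On the leukocyte score 0 passed with a pseudocount of 1, with quantile normalization, with the median score of the markers, without the 2 farthest tumors, without treatment group and without Untreated_197 and IGF1_158, and with all genes of a nonzero value Hoxb4 was not called (adjusted p 0.0907) but Hoxd10 was (0.0149), a gene too low for the main test. The cause was not tested. Of the 5 highest genes, 3 stayed with the M21 exon lengths, and Hoxc6 was above Hoxc8 in 29 tumors, not 50. The median SD of the Hox genes was 0.89 with a pseudocount of 0.1. The median number of Hox genes per tumor was 14 at a threshold of 0.5 RPKM and 4 at a threshold of 2. The median Hox difference from vehicle changed sign for X10 with library size as a covariate (0.08) and, without Untreated_197 and IGF1_158, for glargine (0.05) and X10 (0.01). IGF1_158 is in neither of these comparisons. With 1 tumor left out the median ran from -0.33 to -0.01 for insulin and from -0.25 to 0.05 for glargine. For X10 it ran from -0.32 to 0.01 and for IGF1 from -0.32 to -0.05. That of the pooled comparison, -0.02, ran from -0.13 to 0.03 with 1 tumor left out. A filter at a mean of 5 RPKM left 0 Hox genes and gave no value. No Hox gene called in a test changed its direction under an alternative. Leaving out single tumors or Untreated_197 and IGF1_158, and the M21 exon lengths, were chosen after seeing the data. No paired analysis was possible because the treatment groups share no replicate numbers. The 21 Hox genes under 0.5 RPKM were too low to test in the main model, and the depth limits what can be said of them.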
